A study of Mus musculus with 2 samples.

Results

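The 8 genes described here, Fos, Fosb, Fosl2, Jun, Junb, Jund, Atf3 and Batf3, encode subunits of AP-1, and all 8 were found by symbol among 31053 genes in a single-cell RNA library of donor T cells from mouse colon. The recipients were lethally irradiated Balb/c mice that had been given C57BL/6 bone marrow with splenocytes as the source of mature T cells, a model of graft-versus-host disease. At day 21 the colons of 5 recipients were digested and pooled, and cells positive for H2-Kb, the donor class I molecule, and for TCR beta were sorted. The pool gave 1 RNA library of 5' chemistry and 1 TCR library from the same cDNA, so there is no replicate animal, no untreated control and no test between groups. The sample titles name CD4 T cells, although the described sort has no CD4 gate.

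AP-1 is a family of basic leucine zipper transcription factors that bind DNA as pairs. Fos proteins cannot pair with themselves and need a Jun partner, whereas Jun proteins can also pair with each other and with ATF and BATF proteins. In T cells the family is driven by the MAP kinase pathways downstream of the antigen receptor and CD28, and AP-1 binds together with NFAT at cytokine genes such as Il2 and Csf2. Fos, Fosb, Jun, Junb and Atf3 are immediate early genes, whose RNA appears and decays quickly, and they can also be induced by stress and by tissue digestion.

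Of 5348 barcodes, 5333 had at least 500 detected genes and at most 10% mitochondrial UMIs (unique molecular identifiers, each counting 1 captured RNA molecule), with 2549 to 39138 UMIs each and a median of 4800. A Cd3d, Cd3e or Cd3g UMI was found in 5307 of these cells. The CD4 class, with Cd4 UMIs and none of Cd8a or Cd8b1, held 1861 cells, and the CD8 class, with Cd8a or Cd8b1 UMIs and none of Cd4, held 2391. A further 301 cells had UMIs of both kinds and 780 had neither. The contig table of the TCR library shared 5133 barcodes with the kept cells. Levels are summed UMIs of a gene per 10000 UMIs of a group. Shares of cells were taken after every cell had been thinned at random to 2000 UMIs. Every range in brackets is a 95% interval that covers counting error only, not the spread between cells of a group or the difference between mice. Intervals of levels and ratios count each UMI as independent, so they are too narrow for genes whose UMIs are concentrated in few cells.

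Short stretches of promoter sequence are shown for the members whose start site window, 250 bases before to 50 after the start in RefSeq on GRCm38.p6 (mm10), held a site that cAMP response element binding and ATF factors or Jun-ATF pairs can bind. All 8 genes matched a window. Capitals mark the motif, and the runs are written 5' to 3' on the gene's strand.
Fos, chr12:85473813-85473840, plus strand: gttccgcccagTGACGTaggaagtccat
Jun, chr4:95052249-95052278, minus strand: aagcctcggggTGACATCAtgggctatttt
Atf3, chr1:191183334-191183352, minus strand: ttaatagcattACGTCAgc

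The Fos run holds TGACGT at -66 from the start site, the Jun run holds TGACNTCA at -45, and the Atf3 run holds TGACGT on the opposite strand at -8. Both strands were searched, and a TGACNTCA match whose N is G counts as TGACGT as well. Of 32851 promoter windows, 7.51% held TGACGT, 8.83% held TGACNTCA, 7.81% held TGANTCA, the classical AP-1 site, and 1.63% held a CArG box, the site of serum response factor. No match to these 4 motifs was found in the windows of Fosb, Fosl2, Junb, Jund or Batf3, at the start sites used here. The Atf3 start site used lies 34706 bases from the outer end of the annotated gene, which has more than 1 start site. From the annotated gene start, counted positive downstream, the start site used lies at 671 bases for Fosl2, 567 for Batf3 and -1210 for Jund, so that the annotated starts of these genes were not searched. These matches describe the letters only.

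Over all kept cells, Junb was detected in 5218 cells at full depth and Jund in 4917, whereas Atf3 was detected in 390 and Batf3 in 115. Members differed in how far their UMIs were concentrated in few cells. The 53 cells with most UMIs of the gene held 48.7% of 982 Atf3 UMIs, 23.2% of 6592 Fos UMIs and 16.7% of 8663 Jun UMIs. The same number of cells held 5.46% of 87056 Junb UMIs, 5.44% of 27684 Jund UMIs and 7.67% of 5897 Fosl2 UMIs. For Fosb the top 53 cells held 14.0% of 3181 UMIs, and for Batf3 74.3% of 257 UMIs. Junb and Jund were thus spread over nearly all cells, and large parts of the Atf3 and Batf3 UMIs lay in few cells. Batf3 and Atf3, with the fewest UMIs, had the highest shares, so that these shares cannot be told apart from abundance.

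In the comparison of the CD4 with the CD8 class, which asks how AP-1 RNA is divided between the lineages, 5 of 8 members were higher in the CD4 class by 1.5-fold or more, against 7.92% of 10130 genes with at least 50 UMIs. None was lower by that fold, against 7.00% of genes. The median log2 ratio of the members was 0.65, and that of all genes was -0.04. The members past the fold were Fos, Fosb, Fosl2, Junb and Atf3, and Jun stood at the same level in both classes.

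Among the Fos genes, Fos, the founding immediate early member, had 2.28 UMIs per 10000 in CD4 class cells and 1.43 in CD8 class cells, a ratio of 1.6 (1.51 to 1.7). Fosb, a close relative of Fos that is also quickly induced, had 1.17 in CD4 class cells and 0.685 in CD8 class cells, a ratio of 1.71 (1.57 to 1.85). Fosl2, which encodes Fra-2, a more slowly induced member, had 2.14 in CD4 class cells and 1.39 in CD8 class cells, a ratio of 1.54 (1.45 to 1.63). Fos, Fosb and Fosl2 were all higher in the CD4 class, and their shares of cells followed. Fos was detected in 26.7% of CD4 class cells and 19.4% of CD8 class cells.

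The Jun genes did not share 1 pattern. Junb, which encodes a Jun protein with weaker activation of its own and is prominent in activated and helper T cells, had 34.6 UMIs per 10000 in CD4 class cells and 18.5 in CD8 class cells, a ratio of 1.86 (1.84 to 1.89). Jund, the most steadily expressed Jun gene in many tissues, had 9.50 in CD4 class cells and 7.01 in CD8 class cells, a ratio of 1.35 (1.32 to 1.39). Jun, which encodes c-Jun, had 2.52 in both classes, a ratio of 0.998 (0.95 to 1.05), and was detected in 27.9% of CD4 class cells and 28% of CD8 class cells. Over 11 alternatives of the processing the log2 ratio of Jun ran from -0.42 to 0.033, and that of Junb from 0.60 to 0.93. Between the lineages, the Jun gene with the largest gap was therefore Junb, whose intervals lay far apart, while those of Jun overlapped.

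Atf3, a stress-induced ATF gene whose protein often represses, had 0.384 UMIs per 10000 in CD4 class cells and 0.108 in CD8 class cells, a ratio of 3.55 (2.95 to 4.28). It was detected in 5.70% of CD4 class cells and 1.42% of CD8 class cells. Batf3, known for its need in cross-presenting dendritic cells and also found in T cells, had 0.0846 in CD4 class cells and 0.0687 in CD8 class cells, a ratio of 1.23 (0.92 to 1.65). Only Batf3 and Jun had intervals of this ratio that held equality. Without Trbv26-positive cells, described further on, 3 of 8 members were past the fold, and with 1 cell per clonotype 2 of 8. The CD4 class had a lower share of cycling cells than the CD8 class, 10.2% against 14.8%, and the count of members past the fold was also 5 without cycling cells, without cells carrying macrophage transcripts and without cells with an Hspa1a or Hspa1b UMI.

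**Figure D1:**
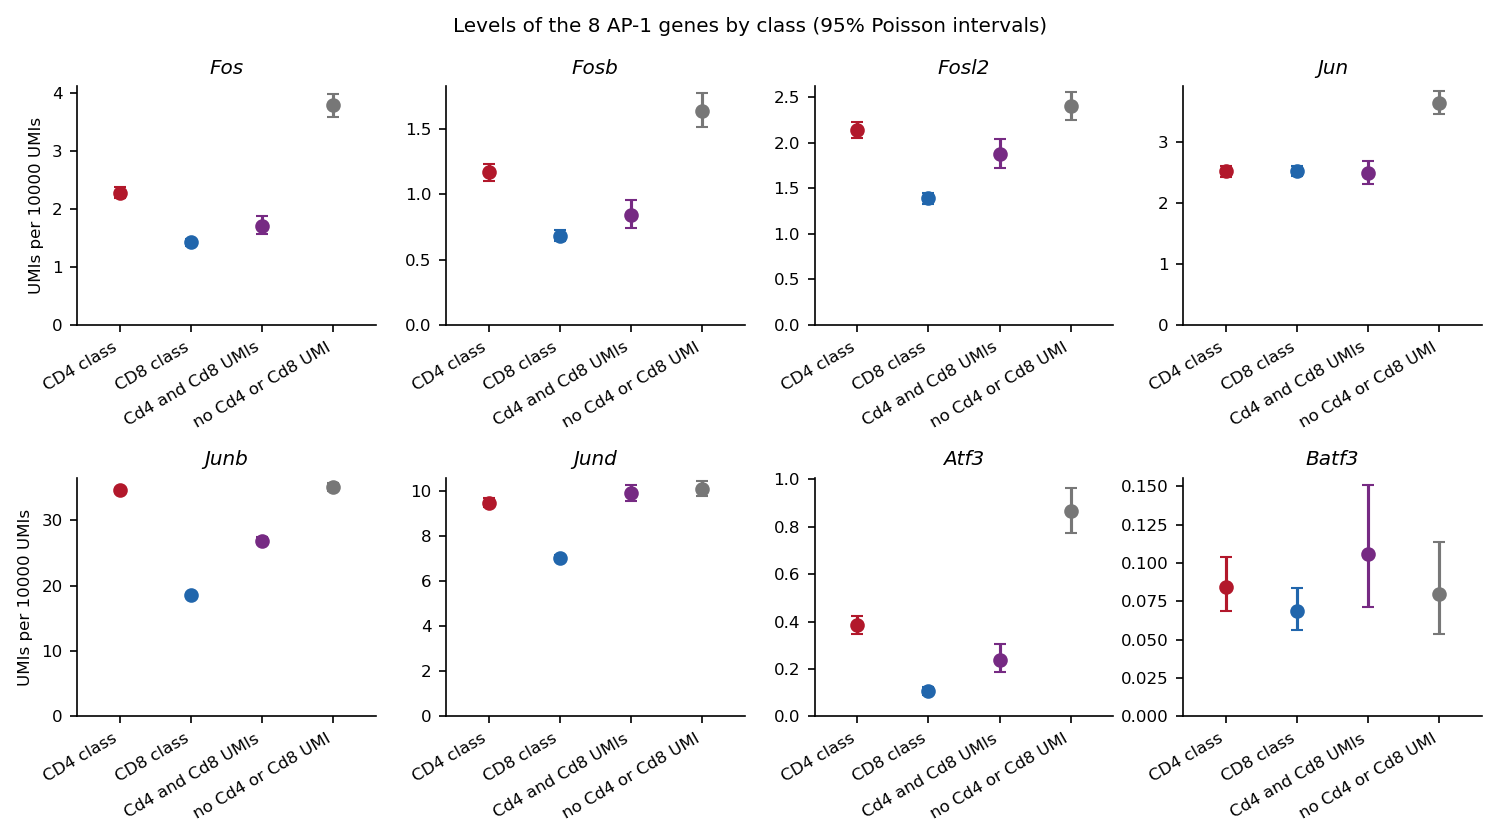
Level of each AP-1 gene in UMIs per 10000 UMIs (y axis, starting at 0, scale per gene) by class: CD4, CD8, UMIs of both and UMIs of neither; points are summed levels and bars 95% Poisson intervals. Junb stood at 34.6 in CD4 class cells and 18.5 in CD8 class cells, whereas Jun stood at 2.52 in both.

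Cells with neither Cd4 nor Cd8 UMIs carried the highest levels of 7 of 8 members, with Batf3 as the exception. Fos was ordered from 3.80 UMIs per 10000 in cells with neither, through 2.28 in the CD4 class and 1.72 in cells with both, to 1.43 in the CD8 class, with no overlap of neighbouring intervals, and Fosb, Fosl2 and Atf3 had the same order without overlap. Atf3 had 0.865 in cells with neither, 0.384 in the CD4 class, 0.240 in cells with both and 0.108 in the CD8 class. For Junb the top neighbours, 35.1 in cells with neither and 34.6 in the CD4 class, had overlapping intervals. For Jund the intervals of cells with neither, with both and of the CD4 class overlapped in turn, for Jun those of all groups but the cells with neither did, and for Batf3 those of all 4 groups did. In the cells with neither, the summed level of 10 macrophage and monocyte genes was 20.9 UMIs per 10000, against 2.23 in CD4 class cells and 1.35 in CD8 class cells. All 10 of these genes had UMIs in each of the 3 groups. In 134 kept cells with 2 or more of these genes detected, Fos stood at 6.78, Atf3 at 2.06 and Batf3 at 0.288 UMIs per 10000, and 186 of the 982 Atf3 UMIs lay there. The part of such transcripts in the levels of cells with neither was not tested.

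The other gene lists of the pathway differed in how far they followed the lineage. Over all 10130 genes, 7.92% were higher in the CD4 class by the fold and 7.00% were lower. Of 26 other immediate early genes, 9 were higher in the CD4 class by the fold and none was lower, with Gadd45b, a growth arrest and stress gene, at 4.98 UMIs per 10000 in CD4 class cells and 2.42 in CD8 class cells. Of 10 genes of MAP kinase feedback, 4 were higher and 1 lower: Dusp1, the phosphatase of p38 and JNK, had 3.89 in CD4 class cells and 2.07 in CD8 class cells, and Spry2, an inhibitor of the Ras pathway, had 0.00810 in CD4 class cells and 0.0714 in CD8 class cells. Of 21 genes of the MAP kinase cascade itself none passed the fold either way. Of 12 measured other bZIP genes 3 were higher, led by Maf, the Th2 and follicular helper factor, at 1.84 in CD4 class cells and 0.254 in CD8 class cells. Of 10 measured cytokine genes with known AP-1 sites 8 were higher, among them Cd40lg at 1.78 in CD4 class cells and 0.0594 in CD8 class cells. Of 9 NFAT and calcineurin genes none was higher and 1 was lower, and of 11 heat shock genes none passed the fold.

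Csf2 encodes GM-CSF, a cytokine whose promoter holds paired NFAT and AP-1 sites. Of the CD4 class, 184 cells had a Csf2 UMI after thinning and 1677 had none. In the Csf2-positive cells 4 of 8 members were higher by 1.5-fold or more, against 6.88% of 8916 genes, and none was lower, against 12.8% of genes. The median log2 ratio was 0.57 for the members and -0.08 for all genes. The 4 were Atf3, Fosb, Fos and Jund. The summed level of 10 macrophage and monocyte genes was 3.70 UMIs per 10000 in Csf2-positive and 2.06 in Csf2-negative CD4 class cells, with Csf1r, Adgre1, C1qa and C1qb at 0 in the Csf2-positive cells, and that of 7 dendritic cell genes was 0.571 in Csf2-positive and 0.341 in Csf2-negative CD4 class cells. Without cells carrying macrophage transcripts 4 of 8 members were past the fold.

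Atf3 had 1.25 UMIs per 10000 in Csf2-positive and 0.286 in Csf2-negative CD4 class cells, a ratio of 4.36 (3.54 to 5.36). It was detected in 15.8% (10.8 to 21.8) of Csf2-positive and 4.59% (3.64 to 5.71) of Csf2-negative cells. Fosb had 2.09 in Csf2-positive and 1.06 in Csf2-negative cells, a ratio of 1.96 (1.70 to 2.26). Fosb was detected in 27.2% (20.9 to 34.2) of Csf2-positive and 19.6% (17.7 to 21.5) of Csf2-negative cells, with overlapping intervals, while the shares for Atf3 lay apart. Fos had 3.58 in Csf2-positive and 2.14 in Csf2-negative cells, a ratio of 1.67 (1.5 to 1.86), but its shares of positive cells were 28.8% (22.4 to 35.9) and 26.4% (24.3 to 28.6), so that the level differed more than the share of cells. Fosl2 had a ratio of 1.40 (1.24 to 1.57), Junb of 1.37 (1.33 to 1.41) and Jund of 1.57 (1.49 to 1.66). Jun, at 2.72 in Csf2-positive and 2.50 in Csf2-negative cells, had a ratio of 1.09 (0.97 to 1.23), and Batf3 rested on 8 UMIs in the Csf2-positive cells. Jun was again the Jun gene whose interval held equality. With 1 cell per clonotype, which leaves 38 Csf2-positive and 258 Csf2-negative CD4 class cells, the log2 ratio was 0.083 for Fos, 0.14 for Fosb and 0.41 for Jund, all below the fold, and 1.28 for Atf3.

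By number of Csf2 UMIs after thinning, Jund stood at 8.98 UMIs per 10000 in CD4 class cells with none, 12.1 with 1, 13.5 with 2 and 16.7 with 3 or more. Fosb stood at 1.06, 1.63, 2.09 and 2.63 in the same groups, and Fosl2 at 2.06, 2.54, 3 and 3.22. The levels of these 3 members were in the order of the Csf2 count, but the intervals of the cells with 1 and with 2 UMIs overlapped, at 11.2 to 13.1 and 11.8 to 15.2 for Jund, 1.30 to 2.03 and 1.49 to 2.86 for Fosb, and 2.12 to 3.02 and 2.27 to 3.90 for Fosl2. Junb stood at 33.3, 43.0, 37.7 and 52.4, and Jun at 2.50, 3.09, 1.98 and 2.61. Fos stood at 2.14, 3.15, 2.30 and 4.65, and Atf3 at 0.286, 1.02, 0.750 and 1.74. None of Junb, Jun, Fos and Atf3 was in order, with the group of 32 cells with 2 UMIs below that with 1. The intervals of these groups overlapped for Jun, Fos and Atf3.

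In the CD8 class 26 cells were Csf2-positive and 2365 were negative. There 7 of 8 members were higher by the fold, against 17.2% of 9344 genes, and none was lower, against 17.3% of genes. Fosb had 2.32 UMIs per 10000 in Csf2-positive and 0.668 in Csf2-negative cells, a ratio of 3.47 (2.42 to 4.84). Junb had 38.5 in Csf2-positive and 18.3 in Csf2-negative cells, a ratio of 2.10 (1.94 to 2.28), and Jun 4.82 in Csf2-positive and 2.50 in Csf2-negative cells, a ratio of 1.93 (1.52 to 2.42). Unlike in the CD4 class, the interval of Jun lay above equality here, although the difference between the classes was not tested. Atf3 rested on 12 UMIs in the Csf2-positive cells, with a ratio of 7.63 (3.86 to 13.7), and Batf3 had 0 UMIs there and 103 in the negative cells. The 26 cells limit each of these values, and with 1 cell per clonotype, which leaves 10 Csf2-positive cells, 4 of 8 members were past the fold. With thinning to 1000 UMIs 3 of 8 were, and the log2 ratio was 0.54 for Fosb and 0.02 for Atf3, on 2 UMIs. With cells of at least 1000 genes and at most 5% mitochondrial UMIs that of Jun was 0.058.

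Other genes differed with Csf2 in the CD4 class as well, where 6.88% of 8916 genes were higher by the fold and 12.8% were lower. Of 26 other immediate early genes 11 were higher by the fold and 2 were lower. Egr3 had 0.348 UMIs per 10000 in Csf2-positive and 0.0430 in Csf2-negative cells, and Egr2 had 0.402 in Csf2-positive and 0.0811 in Csf2-negative cells; both encode zinc finger factors induced by the antigen receptor. Klf2, a factor of resting and recirculating T cells, had 0.839 in Csf2-positive and 2.14 in Csf2-negative cells. Of 9 measured cytokine genes other than Csf2, 7 were higher and 1 was lower, with Il13 at 1.03 in Csf2-positive and 0.115 in Csf2-negative cells. Of 21 MAP kinase cascade genes none was higher and 3 were lower, the latter near the share over all genes. Of 11 heat shock genes 3 were higher, and cells with an Hspa1a or Hspa1b UMI made up 9.24% of Csf2-positive and 4.11% of Csf2-negative cells. Without such cells 4 of 8 members were still past the fold. Cycling cells made up 5.43% of Csf2-positive and 10.7% of Csf2-negative cells, and without cycling cells 2 of 8 members were past the fold, with log2 ratios of 0.51 for Fos and 0.56 for Jund.

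**Figure D2:**
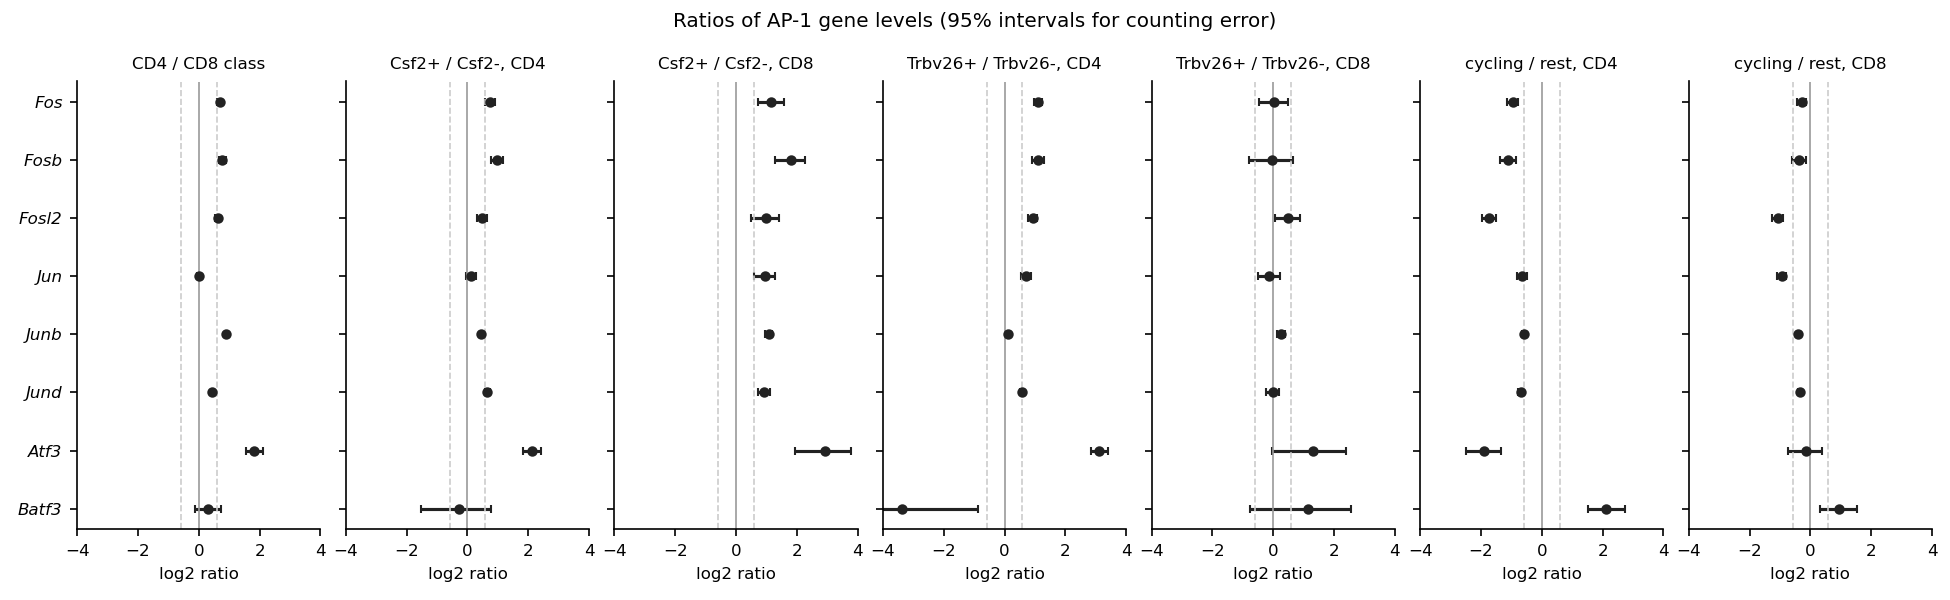
Log2 ratio of the level of each AP-1 gene between the named groups (x axis), with 95% intervals for counting error; the solid line marks equality and the dashed lines 1.5-fold, and the interval of Batf3 for Trbv26 in the CD4 class runs off the axis. Atf3 had the highest ratio in the CD4 over CD8, both Csf2 and the CD4 Trbv26 comparisons, and Batf3, which is left out for Csf2 in the CD8 class because it had 0 UMIs there, was the only member above equality in cycling cells at the thinning to 2000 UMIs.

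Trbv26 encodes the V beta 3 segment of the T cell receptor. Of the CD4 class, 222 cells had a Trbv26 UMI in the RNA library and 1639 had none. The contig table named 22 TRBV segments and 0 contigs of TRBV26, so that the segment is read from the RNA only. A productive TRB contig was present for 24 of the 222 Trbv26-positive and 1103 of the 1639 Trbv26-negative cells. Trbv26-positive cells were shallower, with a median of 4162 UMIs against 4859 in Trbv26-negative cells, and held fewer cycling cells, 2.25% against 11.3%.

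In Trbv26-positive CD4 class cells 5 of 8 members were higher by the fold, against 5.62% of 8916 genes, and 1 was lower, against 18.1% of genes. The median log2 ratio was 0.81 for the members and -0.15 for all genes. Atf3 had the largest ratio: 1.88 UMIs per 10000 in Trbv26-positive and 0.216 in Trbv26-negative cells, a ratio of 8.68 (7.14 to 10.6). It was detected in 22.5% (17.2 to 28.6) of Trbv26-positive and 3.42% (2.59 to 4.41) of Trbv26-negative cells. The 222 cells held 210 of the 426 Atf3 UMIs of the CD4 class, so that about as much Atf3 RNA lay in this small group as in all other CD4 class cells.

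Fos had 4.38 UMIs per 10000 in Trbv26-positive and 2.05 in Trbv26-negative cells, a ratio of 2.14 (1.93 to 2.36), and was detected in 41.0% of Trbv26-positive and 24.7% of Trbv26-negative cells. Fosb had 2.25 in Trbv26-positive and 1.05 in Trbv26-negative cells, a ratio of 2.15 (1.87 to 2.47). Fosl2 had 3.72 in Trbv26-positive and 1.96 in Trbv26-negative cells, a ratio of 1.90 (1.70 to 2.11). Fos, Fosb and Fosl2 were thus higher by nearly the same ratio. Of the Jun genes, Jun had 3.86 in Trbv26-positive and 2.37 in Trbv26-negative cells, a ratio of 1.63 (1.47 to 1.81). Jund had 13.5 in Trbv26-positive and 9.05 in Trbv26-negative cells, a ratio of 1.49 (1.41 to 1.57). Junb had 37.2 in Trbv26-positive and 34.3 in Trbv26-negative cells, a ratio of 1.08 (1.05 to 1.12), and Batf3 had 1 UMI in Trbv26-positive and 93 in Trbv26-negative cells. Between the lineages Junb was past the fold and Jun near equality, whereas here Jun was past it and Junb near equality.

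Among 17 V beta segments with UMIs in at least 30 CD4 class cells, Trbv26 had the highest level of Fos, Fosb, Fosl2, Jun, Jund and Atf3. For Atf3, 1.88 UMIs per 10000 in Trbv26 cells compared with 0.467 in Trbv12-1 cells, the next highest, and a median of 0.156 over the 17 segments. For Fos, 4.38 in Trbv26 cells compared with 2.95 in Trbv15 cells, the next highest. Junb in Trbv26 cells ranked 4 of 17, with levels of 27.2 to 41.1 over the segments. Batf3 was highest in Trbv16 cells, at 0.573. The Trbv26 cells stood at the top for each member except Junb and Batf3.

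The Trbv26 group was not 1 clone. Of the 222 cells 137 had a productive TRA contig, with 113 distinct sets of TRA chains, of which the most frequent was found in 17 cells. The 40 Trbv26-positive cells with both Atf3 UMIs and a TRA contig had 37 distinct sets. With 1 cell kept for each TRA set, 102 Trbv26-positive and 355 Trbv26-negative cells of the CD4 class gave a log2 ratio of 2.54 for Atf3, against 3.12 over all cells. With 1 cell per clonotype, which needs a TRB contig and leaves 14 Trbv26-positive cells with 4 Atf3 UMIs, the log2 ratio was -0.17, and for Fos it was -0.01. As no contig was of TRBV26, the TRB contig of these 14 cells is of another segment. This setting therefore cannot show whether the Trbv26 values depend on clones. The summed level of macrophage and monocyte genes was 0.796 in Trbv26-positive and 2.39 in Trbv26-negative cells, and without cells carrying such transcripts the log2 ratio of Atf3 was 3.21.

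In the CD8 class 42 cells were Trbv26-positive and 2349 negative. Of the members 2 were higher by the fold, against 12.5% of 9344 genes, and none was lower, against 16.0% of genes. They were Atf3, with 7 UMIs in the Trbv26-positive cells and a ratio of 2.48 (0.98 to 5.24), and Batf3, with 4 UMIs and a ratio of 2.22 (0.59 to 5.87), both intervals holding equality. The summed level of macrophage and monocyte genes was 5.97 in Trbv26-positive and 1.26 in Trbv26-negative CD8 class cells, with all 10 detected in both and 6 of 7 measured genes higher by the fold, and that of dendritic cell genes was 1.34 in Trbv26-positive and 0.436 in Trbv26-negative CD8 class cells, with Xcr1, Clec9a, Flt3 and Cd209a at 0 in the Trbv26-positive cells. Without cells carrying macrophage transcripts Batf3 had 0 UMIs in the Trbv26-positive cells and Atf3 still had 7. Without cells with 2 or more productive TRB chains the log2 ratio of Atf3 was -0.47, on 2 UMIs. Fos had 1.46 UMIs per 10000 in Trbv26-positive and 1.43 in Trbv26-negative cells, a ratio of 1.02 (0.72 to 1.40), and Jun had a ratio of 0.92 (0.70 to 1.18). The interval of Fos lay below its CD4 class ratio of 2.14. The difference between the classes was not tested.

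Among the lists in the CD4 class, 5 of 26 other immediate early genes were higher in Trbv26-positive cells and 2 were lower. Over all 8916 genes, 5.62% were higher by the fold and 18.1% were lower. Cd69, an early activation and tissue retention gene, had 7.15 UMIs per 10000 in Trbv26-positive and 3.85 in Trbv26-negative cells, and Nr4a1, induced by the antigen receptor, had 9.68 in Trbv26-positive and 6.30 in Trbv26-negative cells. Of 8 measured feedback genes 2 were higher and 3 lower, with Dusp10 at 2.10 in Trbv26-positive and 0.992 in Trbv26-negative cells and Dusp4 at 1.08 in Trbv26-positive and 1.80 in Trbv26-negative cells. Rasgrp1, which activates Ras below the antigen receptor, had 2.36 in Trbv26-positive and 1.48 in Trbv26-negative cells, while 2 of 21 cascade genes were higher and 2 lower. Of 11 heat shock genes 4 were higher, with Dnajb1 at 1.87 in Trbv26-positive and 0.940 in Trbv26-negative cells. Their part in the AP-1 levels was not tested, and without cells with an Hspa1a or Hspa1b UMI the log2 ratio of Fos was 0.89, against 1.10 over all cells.

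Csf2 and Trbv26 overlapped: 49 of the 184 Csf2-positive and 173 of the 1677 Csf2-negative CD4 class cells were Trbv26-positive. Atf3 stood at 3.54 UMIs per 10000 in cells positive for both, 1.38 in cells positive for Trbv26 alone, 0.558 in cells positive for Csf2 alone and 0.184 in cells negative for both. The Atf3 ratio for Csf2 was 2.57 (1.94 to 3.41) within Trbv26-positive and 3.03 (2.15 to 4.20) within Trbv26-negative cells. The ratio for Trbv26 was 6.34 (4.42 to 9.18) within Csf2-positive and 7.47 (5.85 to 9.51) within Csf2-negative cells. Each difference was thus present within both levels of the other. Fosb stood at 3.88 in cells positive for both, 1.76 with Trbv26 alone, 1.55 with Csf2 alone and 0.999 in cells negative for both. The intervals with Trbv26 alone and with Csf2 alone overlapped for Fosb, at 1.49 to 2.06 and 1.30 to 1.83, and lay apart for Atf3, at 1.14 to 1.65 and 0.412 to 0.740. Fos had 3.54 in cells positive for both, 4.64 with Trbv26 alone, 3.59 with Csf2 alone and 1.90 in cells negative for both, and was thus highest with Trbv26 alone. Junb was highest with Csf2 alone, at 46.4, against 43.2 in cells positive for both.

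**Figure D3:**
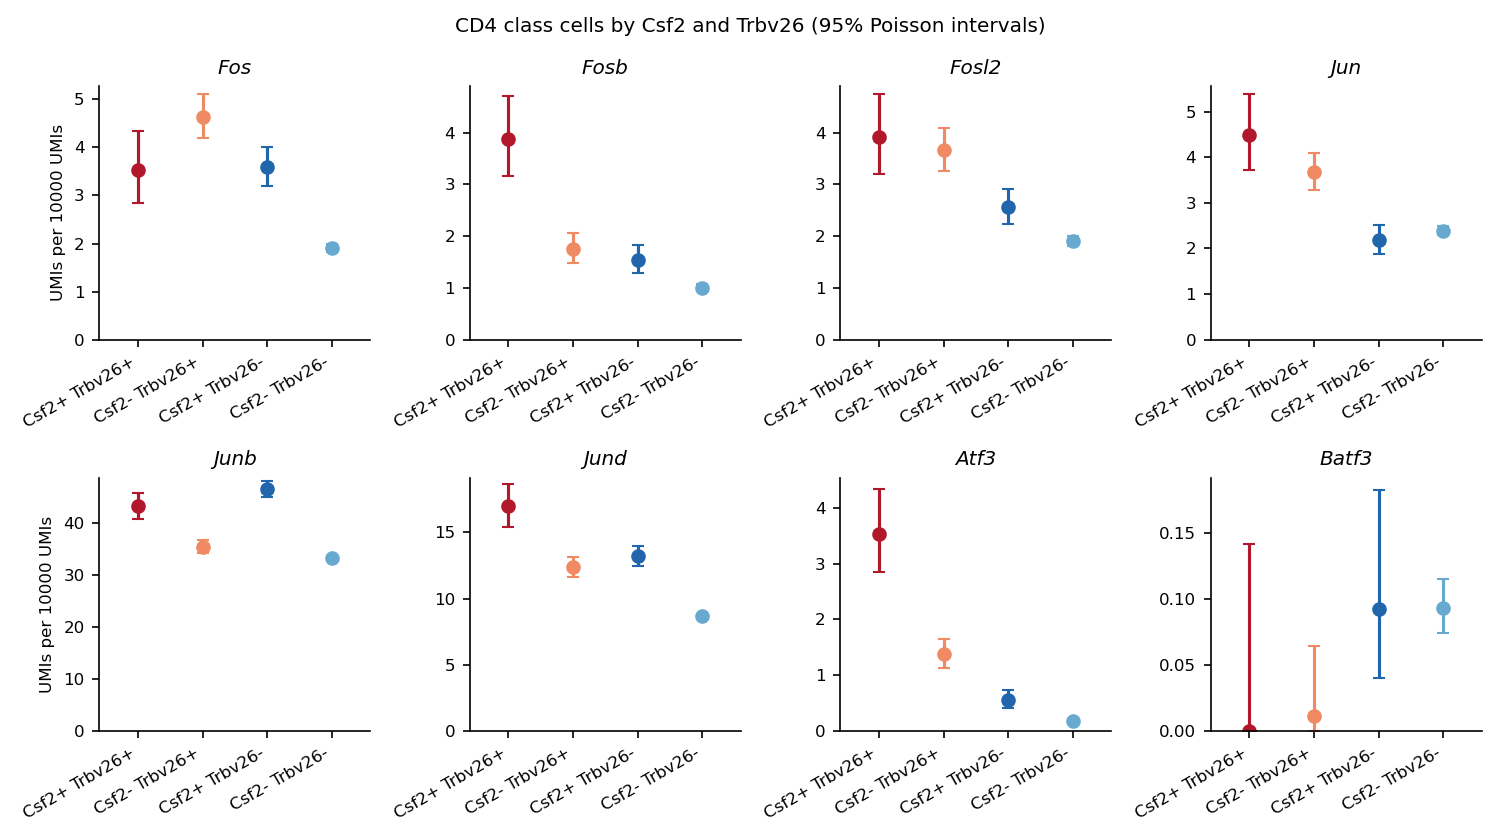
Level of each AP-1 gene in UMIs per 10000 UMIs (y axis, starting at 0, scale per gene) in CD4 class cells grouped by Csf2 and Trbv26; points are summed levels and bars 95% Poisson intervals. Atf3 stood at 3.54 in cells positive for both and 0.184 in cells negative for both. Fos was highest, at 4.64, in cells positive for Trbv26 alone, with an interval that overlapped that of cells positive for both.

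Cells with cycling genes had lower levels of most members, as a share of their UMIs. In 190 CD4 class cells with 3 or more cycling genes detected, 7 of 8 members were lower than in the other 1671 by the fold, against 16.4% of 8909 genes, and 1 was higher, against 14.3% of genes. Fosl2 had 0.756 UMIs per 10000 in cycling and 2.50 in other CD4 class cells, a ratio of 0.30 (0.26 to 0.35). Junb had 24.6 in cycling and 37.2 in other cells, a ratio of 0.66 (0.64 to 0.68). Batf3 was the exception, with 0.217 in cycling and 0.0500 in other cells, a ratio of 4.35 (2.84 to 6.68), and 50 of its 94 CD4 class UMIs lay in the cycling cells. In the CD8 class, with 353 cycling and 2038 other cells, 2 members were lower by the fold, against 12.0% of 9337 genes, and 1 was higher, against 10.7%. Fosl2 had a ratio of 0.47 (0.42 to 0.54), Jun of 0.52 (0.47 to 0.57) and Batf3 of 1.91 (1.25 to 2.89). The Batf3 log2 ratio in the CD8 class turned to -0.58 with thinning to 1000 UMIs and to -0.60 with 1 cell per clonotype. Cycling cells held a median of 11160 UMIs against 4511 in other CD4 class cells, and 9508 against 4550 in the CD8 class. Fos had 301 UMIs in the 190 cycling and 2236 in the 1671 other CD4 class cells, so that its lower level was a smaller share of a larger total.

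Among the helper and memory groupings of the CD4 class, Atf3 was higher in the Th2 group and had no UMI in the Th17 group. In 135 cells with 2 or more Th2 genes detected, 4 members were higher by the fold, against 6.23% of 8911 genes, and 1 was lower, against 17.3%. Atf3 had 1.01 UMIs per 10000 in the Th2 group and 0.335 in the rest, a ratio of 3.02 (2.34 to 3.85), and Fos 4.03 in the Th2 group and 2.15 in the rest, a ratio of 1.87 (1.66 to 2.11). Fosb and Fosl2 were the others past the fold. Jun, by contrast, had 2.19 in the Th2 group and 2.54 in the rest, a ratio of 0.86 (0.74 to 1.01). Without thinning the log2 ratio in the Th2 group was 0.32 for Fos, 0.33 for Fosb and 0.41 for Fosl2, all below the fold. Without cycling cells it was 0.52 for Fosb and 0.38 for Fosl2, also below it. That of Atf3 was at least 1.01 over the alternatives. In 72 cells with 2 or more Th17 genes none was higher and 1 was lower, against 19.5% of 8910 genes: Atf3 had 0 of the 426 UMIs of the class, which with a floor of 3 UMIs over the group puts the log2 ratio at -2.33 or below. Fosl2 had 3.13 in the Th17 group and 2.10 in the rest, a ratio of 1.49 (1.23 to 1.79). This direction turned under alternatives: the log2 ratio of Fosl2 was -0.36 without thinning. With 1 cell per clonotype it was -1.01, on 7 UMIs in the Th17 group. Of the remaining CD4 groups, 21 Foxp3-positive cells and 101 cells with memory genes each had 1 member lower by the fold, Atf3 in both, on 2 and 12 UMIs, against 16.3% and 14.8% of genes. Its ratio was 0.48 (0.058 to 1.75) for Foxp3 and 0.63 (0.32 to 1.10) for memory genes, so that both intervals held equality, and over the alternatives its log2 ratio for memory genes ran from -2.58 to 2.49, so that its direction there is not set.

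Batf3 was past the fold in the Gzmk, Xcl1 and Prf1 groupings of the CD8 class. It had 0.0290 UMIs per 10000 in 1139 Gzmk-positive cells and 0.103 in the rest, a ratio of 0.28 (0.16 to 0.46), and was the 1 member lower by the fold there, against 3.98% of 9344 genes. None was higher, against 1.62% of genes. Without thinning the log2 ratio of Batf3 in Gzmk-positive cells was -0.18, against -1.83 with thinning. In 191 Xcl1-positive cells Batf3 had 0.195 against 0.0543 in the rest, a ratio of 3.59 (2.27 to 5.57), the 1 member higher by the fold, against 6.97% of genes, and none was lower, against 10.1%. In 595 Prf1-positive cells Atf3 and Batf3 were lower by the fold, with ratios of 0.58 and 0.56, against 3.40% of genes. Both directions turned with the thinning depth: the log2 ratio of Atf3 was 0.35 at 1000 and 0.31 at 3000 UMIs, and that of Batf3 was 0.33 at 3000 UMIs and 0.62 without thinning. Cells with memory genes, 63 in the CD8 class, had 1 member lower, Fos, with a ratio of 0.66 (0.45 to 0.94), against 18.9% of genes. Its log2 ratio was 0.69 at 3000 UMIs and 0.28 without thinning, so that this direction also turned. The other members stayed within the fold in the Gzmk and Xcl1 groups, among them Junb at 24.4 in Xcl1-positive cells and 17.9 in the rest.

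Clonotypes, defined by paired productive TRA and TRB chains, could be set for 2628 cells in 826 clonotypes. In the CD4 class 672 cells of clonotypes with 2 or more cells were set against 213 of clonotypes seen once. There 2 members were lower in expanded clonotypes by the fold, against 4.05% of 7607 genes, and none was higher, against 5.86%. They were Atf3, with 0.129 UMIs per 10000 in expanded and 0.399 in single clonotypes, a ratio of 0.32 (0.22 to 0.47), and Batf3, on 35 UMIs in expanded and 29 in single clonotypes. With 2 or more UMIs of the lineage genes, which leaves 365 expanded and 125 single cells, the log2 ratio of Atf3 was -0.61, against -1.64 over all cells. Of the expanded cells 6 and of the single cells 14 were Trbv26-positive, and without them it was -1.77. With clonotypes set by the TRB chain alone the log2 ratio of Batf3 was 0.038, against -1.29. Junb stood at 32.8 in expanded and 32.0 in single clonotypes. In the CD8 class 1028 expanded and 242 single cells had 1 member lower by the fold, against 3.48% of 8516 genes, and none higher, against 3.98%. It was Batf3, with a ratio of 0.36 (0.22 to 0.58). The 8 CD8 ratios all lay below equality, with Jun at 2.09 in expanded and 3.10 in single clonotypes, a ratio of 0.67 (0.61 to 0.74). Over both classes 3 of 16 values were past the fold, against 8 with the mean of per-cell levels. With 1 cell per clonotype, which leaves 83 expanded and 213 single cells in the CD4 class and 102 expanded and 242 single cells in the CD8 class, 2 of the 16 values were past it, Atf3 in the CD4 class had a log2 ratio of -1.49 on 7 UMIs in expanded clonotypes, and Fosl2 in the CD8 class turned to 0.22.

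In clones of 25 or more cells, 9 of the CD4 lineage with 406 cells and 6 of the CD8 lineage with 547 cells, Junb separated the lineages. It ranged from 20.4 to 44.9 UMIs per 10000 over the CD4 clones, with a median of 33.0, and from 13.4 to 19.6 over the CD8 clones, with a median of 16.1. The ranges did not overlap. The 3 CD4 clones with the largest shares of cycling cells, 31.5%, 25% and 23.9%, were also the 3 with the lowest Junb, at 21.5, 20.4 and 24.3. Among the CD8 clones the largest shares, 35.2% and 26.7%, went with the lowest Junb, at 13.4 and 14.0. The next largest share there, 25.9%, went with the highest Junb, at 19.6. For the other members the ranges overlapped. Fos ranged from 0.863 to 3.18 over the CD4 clones and from 0.404 to 1.67 over the CD8 clones, and Jun from 0.648 to 3.33 over the CD4 clones and from 0.734 to 3.35 over the CD8 clones. Jun thus varied over nearly the same range in clones of either lineage. Atf3 reached 0.744 in 1 CD4 clone of 28 cells and was at most 0.163 in the other CD4 clones.

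**Figure D4:**
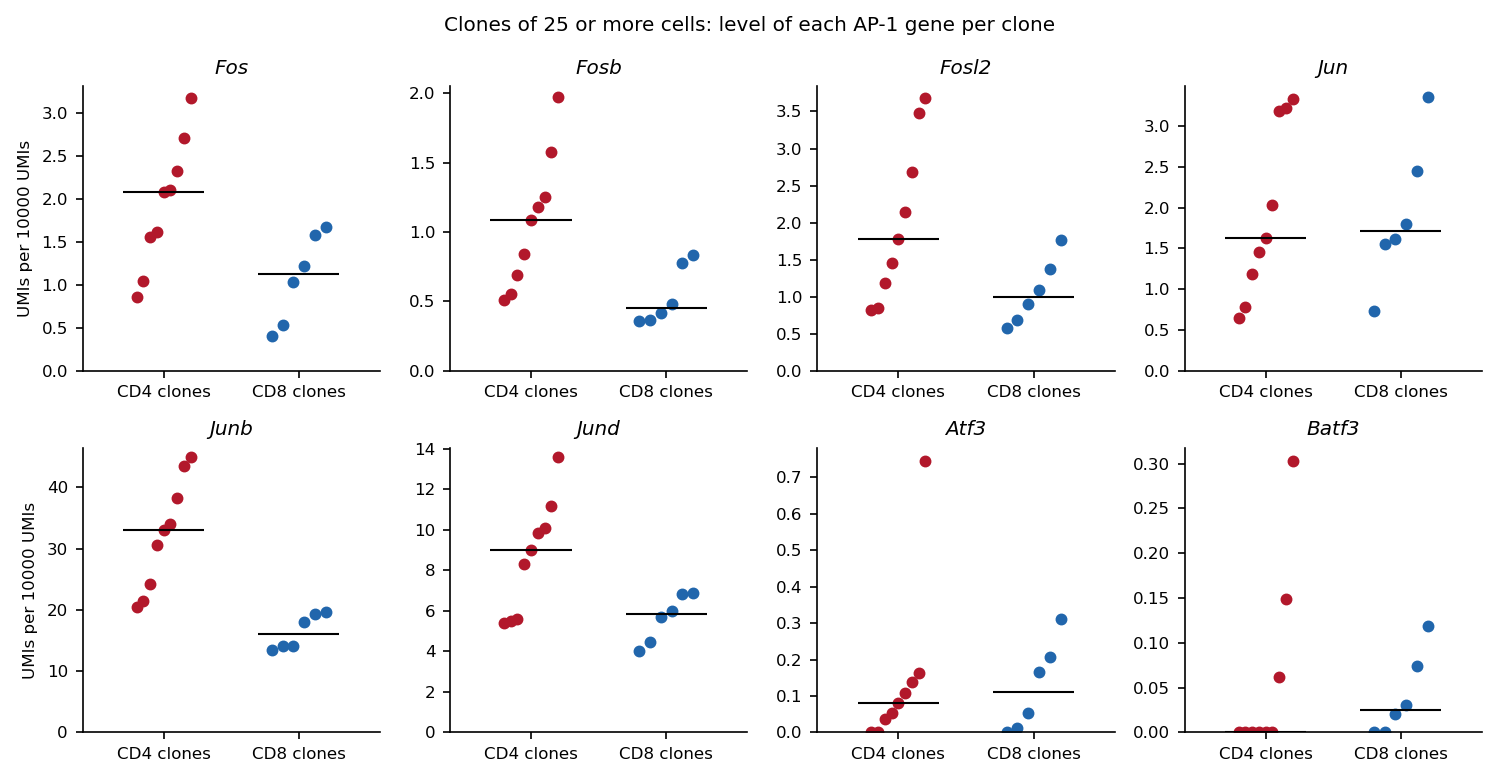
Level of each AP-1 gene in UMIs per 10000 UMIs (y axis, starting at 0, scale per gene) in clones of 25 or more cells; each point is 1 clone, in order of level within its lineage, and lines are medians. Junb lay between 20.4 and 44.9 in CD4 clones and between 13.4 and 19.6 in CD8 clones, while the ranges of the other members overlapped.

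Correlations across cells were weak, as counts this sparse allow, and are descriptions over cells that share 1 library, 1 digestion and a thinned depth of 2000 UMIs. Of 28 pairs of members, 15 had a Pearson's r of 0.1 or more over 1861 CD4 class cells and 11 over 2391 CD8 class cells. These 26 of 56 pairs became 11 with thinning to 1000 UMIs and 8 with detection alone. Batf3 was too sparse for the comparison with all genes, and of the 21 pairs without it 15 in CD4 class cells and 11 in CD8 class cells reached 0.1. Of all pairs of a member other than Batf3 with another gene, 0.772% in CD4 class cells and 0.450% in CD8 class cells reached this value, a share that includes genes far sparser than most members. The highest pair was Junb with Jund, at 0.27 in CD4 class cells and 0.21 in CD8 class cells. After thinning, r with the log of a cell's total UMIs was -0.20 for Junb and -0.18 for Jund in the CD4 class. In the CD8 class it was -0.13 for Junb and -0.09 for Jund. The part of depth in the pairs was not tested. Fos with Jun stood at 0.21 in CD4 class cells and 0.16 in CD8 class cells, and Fosb with Jun at 0.19 and 0.13 in the same classes. Fos with Fosl2, by contrast, had 0.04 in the CD4 class and stood at 0 within rounding among CD8 class cells. Atf3 reached 0.1 with Fos, Fosb and Jund in the CD4 class and with no member in the CD8 class, where its UMIs are few. No pair with Batf3 reached it in either class.

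In Csf2-positive CD4 class cells 15 of 28 pairs reached 0.1 over 184 cells, with Fosb and Jun at 0.32. In 388 Trbv26-positive cells of all classes 18 of 28 pairs did, with Fosb and Jund at 0.33 and Junb and Atf3 at 0.21. This set mixes classes that differ in level, so its values cannot be compared with those of a single class. The share of all genes at this r was not computed for either set, so these counts have no background. In such small sets of sparse counts a weak r is no finding. The counts behind the main pair of a Fos with a Jun gene show the size: 39.1% (34.8 to 43.6) of 496 Fos-positive CD4 class cells had a Jun UMI, and 23.8% (21.6 to 26.2) of 1365 Fos-negative cells. In the CD8 class these shares were 38.8% of 464 Fos-positive and 25.4% of 1927 Fos-negative cells.

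**Figure D5:**
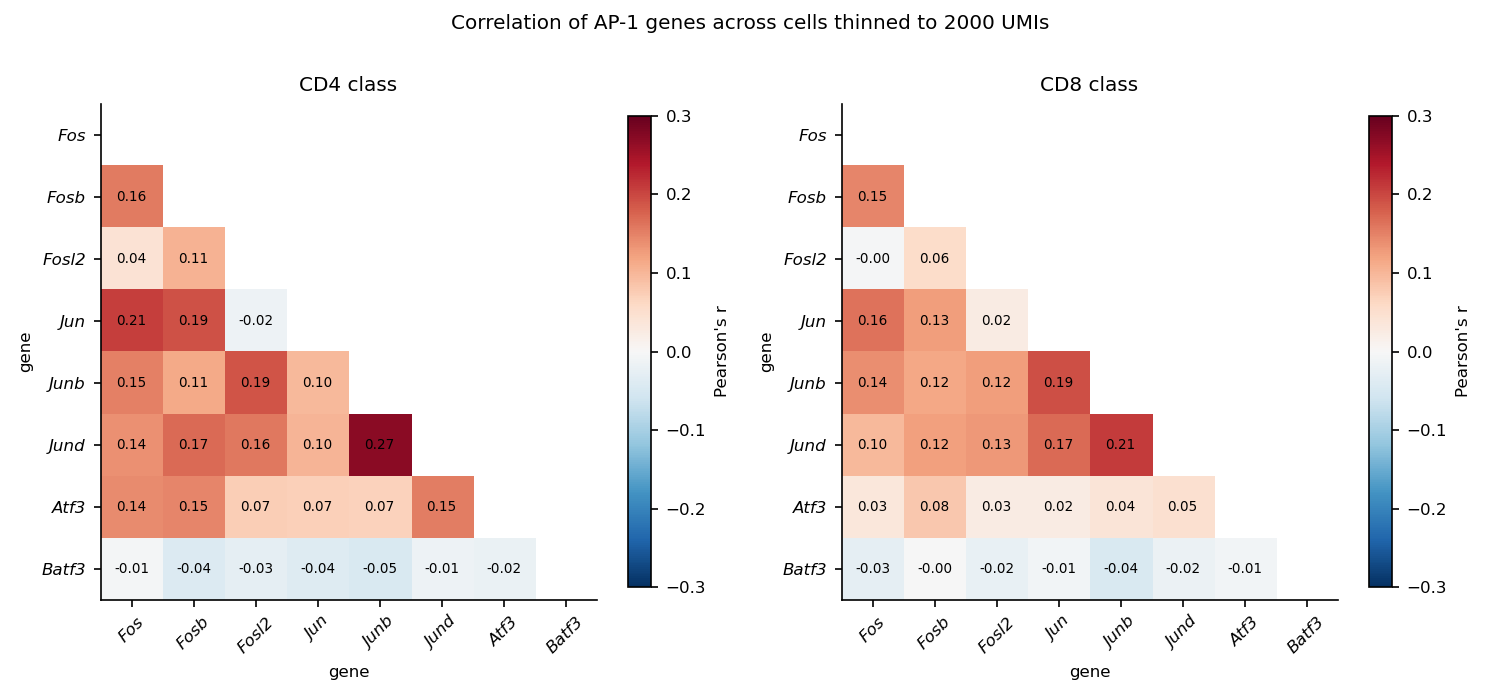
Pearson's r between AP-1 genes (both axes) across cells of the CD4 class and of the CD8 class, on log(1 + UMIs per 10000) after thinning to 2000 UMIs; colour and number give r. Junb with Jund was highest, at 0.27 in CD4 class cells and 0.21 in CD8 class cells, and Batf3 stood near 0 with every member.

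For Fos, Jun and Junb the genes most like the member included other immediate early genes. Fos was most like Zfp36, which encodes the RNA-binding protein tristetraprolin, with r of 0.25 in the CD4 and 0.22 in the CD8 class, and Dusp1, with 0.24 in the CD4 and 0.19 in the CD8 class. Jun was most like Cd69 at 0.30 and Zfp36 at 0.29 in the CD4 class, and Ccl4, a chemokine gene, at 0.29 and Zfp36 at 0.27 in the CD8 class. Junb was most like Dusp1 at 0.31 and Bhlhe40 at 0.29 in the CD4 class, and Nfkbia at 0.33 and Pim1 at 0.28 in the CD8 class. In the CD4 class Zfp36 was among the 5 nearest genes of Fos and Jun, and Bhlhe40 among those of Junb and Jund. Fosl2 was most like Ifrd1 at 0.19 in the CD4 class and Nr4a2 at 0.17 in the CD8 class. Atf3 was most like Ccl1 at 0.20 and Socs2 at 0.20 in the CD4 class, and Mtap at 0.13 in the CD8 class. There the immediate early genes Ier2 and Nfkbia and the macrophage gene Lyz2 were also among the 5 nearest genes of Atf3, each at 0.09. The summed members were most like Dusp1 at 0.35 in the CD4 class and Nfkbia at 0.33 in the CD8 class.

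Cells with several of the quickly induced genes formed a small fraction. Counting Fos, Fosb, Jun and Atf3, 851 CD4 class cells had none detected, 631 had 1, 279 had 2, 90 had 3 and 10 had all 4. Zfp36 stood at 1.33, 2.41, 4.7, 11 and 28 UMIs per 10000 over these groups, and Cd69 at 2.92, 4.16, 6.26, 11.4 and 18.6. The share of Trbv26-positive cells was 7.17%, 12.8%, 17.6%, 27.8% and 60.0%, and that of cycling cells 12.9%, 9.51%, 7.17%, 0.0% and 0.0%. In the CD4 class Zfp36, Cd69 and the Trbv26 share were thus higher with more of these genes, and the cycling share was lower. Zfp36 and Cd69 correlated with Fos and Jun in the same cells. All 4 genes were also higher in Trbv26-positive and lower in cycling cells. These orders therefore restate values given above and add no separate support. Ifng, a cytokine gene, stood at 1.66, 2.06, 2.86, 2.67 and 1.15, not in order. The summed heat shock genes stood at 57.3, 55.1, 59.2, 64.8 and 95.1 UMIs per 10000, and the median depth at 5076, 4734, 4394, 3930 and 3850 UMIs. In the CD8 class 1299 cells had none, 776 had 1, 263 had 2, 53 had 3 and none had all 4, with Zfp36 at 1.18, 2.45, 5.25 and 11.6 and heat shock genes at 61.5, 60.1, 65.8 and 69.0. There the Trbv26 share was 1.69%, 1.93%, 1.52% and 1.89% and the cycling share 16.7%, 13.1%, 9.89% and 15.1%, neither in order of the number of genes. Ifng stood at 1.75, 2.26, 3.48 and 6.48 in these CD8 class groups. The part of the digestion, of heat shock genes and of depth in this pattern was not tested.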

How the data were processed

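The RNA values are UMI counts per gene and barcode as deposited by the authors, whole numbers that are not normalized; the contig table is the authors' TCR annotation, used for chains, CDR3 and clonotypes. Cell Ranger and mm10 are named per the submitters' processing notes, and their versions are not given in the sources used. Gene positions are from GENCODE M21.

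Cells were kept and classed as stated above, with a thinning seed of 1. No doublet caller was run; 232 kept cells carried several productive TRB chains. Levels have exact Poisson intervals, shares Clopper-Pearson intervals and ratios exact conditional binomial intervals, at 95%. Genes needed 50 UMIs over both groups, genes with 0 UMIs in a group were set to 3 UMIs, and genes defining a group were left out of its counts. Groups by a detected gene used thinned cells; Trbv26 used all UMIs. Gene lists count members past 1.5-fold; up to 4 genes per list, by the interval bound farthest from equality, and the genes most correlated with a member could be named. The members and lists were chosen with earlier results of these data known. The calculations were tested on simulated data. Software was matplotlib 3.10.9, pandas 2.3.3, scipy 1.17.1, numpy 2.4.6 and Python 3.11.15. All cells come from 1 pool, so no p-value was computed.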

Additional observations from a re-analysis of the deposited data

Results flagged for a closer look

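Fos pointed in opposite directions for Csf2 by Trbv26. In Trbv26-positive CD4 class cells it was lower in cells positive for Csf2 than in those without it, with a ratio of 0.763 (0.60 to 0.96) on 92 and 398 UMIs. In Trbv26-negative cells it was higher in Csf2-positive cells, with a ratio of 1.89 (1.67 to 2.13) on 309 and 1738 UMIs. The difference between these ratios was not tested.

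Junb pointed in opposite directions for Trbv26 by Csf2, by small ratios. It was lower in Trbv26-positive than in Trbv26-negative cells within the Csf2-positive CD4 class, with a ratio of 0.929 (0.87 to 0.99), and higher within the Csf2-negative cells, with a ratio of 1.07 (1.03 to 1.11). The difference was not tested.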

How the results depend on the processing

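All cells come from 1 pool, so no alternative leaves out an animal. No paired analysis was possible because there is 1 RNA library. Of 1783 member values under alternatives, 1370 stayed within the 95% interval of the reported value, 385 moved outside it and 28 changed direction; the cause was not tested. Alternatives that leave out Trbv26-positive or Csf2-positive cells, keep 1 cell per TRA set, keep 1 cell per clonotype in the expanded comparison, ask for 3 Trbv26 UMIs or drop cycling cells from the correlations were chosen after seeing the data. The contig call of TRBV26 could not be used, since the table has 0 such contigs.

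Counts of member values past the fold moved by over 1.5 times as follows. For the CD4 over the CD8 class, 5 of 8 became 3 with 2 or more UMIs of the lineage genes, 2 with 1 cell per clonotype and 3 without Trbv26-positive cells. For Csf2 in the CD4 class, 4 of 8 became 2 without cycling cells. For Csf2 in the CD8 class, 7 of 8 became 4 with 1 cell per clonotype and 3 with thinning to 1000 UMIs. For Trbv26 in both classes, 8 of 16 became 3 with 1 cell per clonotype, which keeps only Trbv26-positive cells whose TRB contig is of another segment. Over all gene-defined groups, 24 became 12 without cycling cells, a setting that empties the cycling groups. For expanded clonotypes, 3 of 16 became 8 with the mean of per-cell levels, and 5 without cells with macrophage genes, without cells with an Hspa1a or Hspa1b UMI and without cycling cells. Of 56 pairs, 26 with r of 0.1 or more became 11 with thinning to 1000 UMIs and 8 with detection alone.

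The following log2 ratios, all with a reported interval that left out equality, changed direction. With 1 cell per clonotype, Trbv26 in the CD4 class gave -0.012 for Fos, -0.26 for Fosb and -0.17 for Atf3, on Trbv26-positive cells whose TRB contig is of another segment. The Th17 group gave -1.01 for Fosl2 and -0.12 for Junb, CD4 memory 0.52 for Jun and 0.18 for Junb, cycling CD8 cells -0.60 for Batf3, Xcl1 -0.22 for Fosb, -0.12 for Jun and -0.027 for Jund, and expanded CD8 clonotypes 0.22 for Fosl2. At 1000 UMIs, CD8 memory gave -0.049 for Jund, cycling CD8 cells 0.032 for Fos and -0.58 for Batf3, and Prf1 0.35 for Atf3. At 3000 UMIs, CD8 memory gave 0.69 for Fos, and Prf1 0.31 for Atf3 and 0.33 for Batf3. Without thinning, the Th17 group gave -0.36 for Fosl2 and -0.0011 for Junb, CD8 memory 0.28 for Fos, -0.31 for Fosl2 and -0.055 for Jund, and Prf1 -0.11 for Jun, -0.085 for Junb and 0.62 for Batf3. With clonotypes by TRB chain alone, expanded CD4 clonotypes gave 0.038 for Batf3. Members with fewer than about 50 UMIs in a group, mostly Atf3 and Batf3, are limited by depth.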
